A study of Mus musculus with 8 samples.

Results

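The genes described here encode the matrix proteins of the liver that are not collagens: adhesive and matricellular glycoproteins, elastic fibre and microfibril proteins, lysyl oxidases, proteoglycans and basement membrane linkers. The set was a fixed list of 43 gene symbols, matched by gene identifier among the 56953 identifiers of 8 whole-liver RNA-seq count tables. All 43 were found, and 41 had enough counts to be tested among 15669 genes. Mfap5, a microfibril protein, and Aspn, a small leucine-rich proteoglycan, did not pass the filter on low counts, with 6 and 31 counts over all 8 libraries.

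The 8 libraries came from livers of adult male mice on CDHFD for 8 weeks, a diet without choline and rich in fat that produces fatty liver with inflammation and scarring. 4 were control (WT genotype) and 4 were HSC-PCK1-KO, in which Pck1, for cytosolic phosphoenolpyruvate carboxykinase, is the gene deleted in hepatic stellate cells. The labels name neither the Cre driver nor the allele and have no group on another diet, so the comparison is between genotypes within fatty, injured liver. The study's title links loss of PCK1 in stellate cells to liver fibrosis, and the comparison therefore asks whether transcripts of the non-collagen matrix differ between the genotypes.

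Scar tissue holds more than collagen. In liver injury, stellate cells and portal fibroblasts deposit fibronectin, elastin on fibrillin microfibrils, proteoglycans that space and bind the collagen fibrils, and lysyl oxidases that crosslink collagen and elastin. Hepatocytes also secrete large amounts of fibronectin and vitronectin, which circulate in plasma, so whole-liver RNA of this gene group mixes hepatocyte and mesenchymal sources.

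Library totals ranged from 44695439 to 49477255 counts. Levels are in CPM, the usual scaling of counts by library total, here adjusted by a TMM factor, and each log2 fold change takes HSC-PCK1-KO against control, so that a negative value means a lower level in HSC-PCK1-KO. Pck1 stood at 551 to 2012 CPM in control and 339 to 948 CPM in HSC-PCK1-KO livers, and because hepatocytes express it these levels say nothing of its deletion in stellate cells. Hepatocyte markers summed to 85010 to 107200 CPM, and all 12 stellate cell markers were detected well enough to be tested. The submitters describe the 4 libraries of a group as biological replicates, and all 8 carry the same batch label. 2 libraries stood apart in fibrillar collagen, given as the mean log2 CPM of Col1a1, Col1a2 and Col3a1. That mean was 5.86 in control replicate 4 and 3.89 in HSC-PCK1-KO replicate 1, against 4.24 to 5.27 in the other 6. The same libraries were the extremes of most genes described below, so results are also given without them. Leaving out a high control or a low HSC-PCK1-KO library moves fold changes upward by construction. Such values show how far a result rests on these livers and do not test its direction.

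The promoter sequences of 4 genes on which the results turn are shown, to give the start regions of genes whose levels followed different patterns. Spock2 had the fold change farthest from 0, Fbn1 and Nid1 followed fibrillar collagen most closely across livers, and Vtn ran opposite to it. Each line gives the 250 bases before the RefSeq start in build GRCm38.p6, read 5′ to 3′ on the gene's strand, with matches in capitals to any of 4 motifs searched on both strands. These were the TATA box (TATAAA), SP1 (GGGCGG), AP-1 (TGANTCA) and TEAD (GGAATG) motifs.
Spock2 (chr10:60106007-60106256, + strand): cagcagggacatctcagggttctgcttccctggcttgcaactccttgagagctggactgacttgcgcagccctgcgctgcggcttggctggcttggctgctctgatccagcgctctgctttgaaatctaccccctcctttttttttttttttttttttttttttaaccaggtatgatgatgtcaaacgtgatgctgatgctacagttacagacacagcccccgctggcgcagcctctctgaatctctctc
Fbn1 (chr2:125506439-125506688, - strand): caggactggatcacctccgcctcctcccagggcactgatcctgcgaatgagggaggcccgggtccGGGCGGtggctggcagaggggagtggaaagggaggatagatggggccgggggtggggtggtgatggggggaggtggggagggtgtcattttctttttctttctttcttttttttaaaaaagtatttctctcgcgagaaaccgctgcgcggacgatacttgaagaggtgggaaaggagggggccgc
Nid1 (chr13:13437352-13437601, + strand): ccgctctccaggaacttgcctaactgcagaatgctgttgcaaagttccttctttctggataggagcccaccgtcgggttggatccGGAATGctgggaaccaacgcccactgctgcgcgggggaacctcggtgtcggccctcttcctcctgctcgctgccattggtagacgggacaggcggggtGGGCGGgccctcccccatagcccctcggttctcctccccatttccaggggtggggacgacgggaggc
Vtn (chr11:78498870-78499119, + strand): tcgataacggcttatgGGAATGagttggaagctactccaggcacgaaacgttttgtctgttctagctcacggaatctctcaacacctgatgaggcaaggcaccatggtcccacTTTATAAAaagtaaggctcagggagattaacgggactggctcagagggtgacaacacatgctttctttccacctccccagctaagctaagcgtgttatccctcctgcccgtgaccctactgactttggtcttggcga

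The Vtn window holds TATAAA on both strands at overlapping positions and one TEAD match, the Fbn1 and Nid1 windows each hold an SP1 match, and Nid1 also has a TEAD match. None of the 4 motifs occurs in the Spock2 window. RefSeq windows were matched for 29 of the 43 genes, with 37 start sites. SP1 letters were in 54.1% of these 37 windows against 32.7% of all 32851 windows in the table, TATAAA in 21.6% against 12.4%, TEAD letters in 13.5% against 12.6% and AP-1 letters in 8.11% against 6.75%. Such matches describe the letters only.

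Per transcript length, 2 plasma glycoproteins stood above every other gene of the group. Levels per length are in TPM, which divides by transcript length before scaling each library to the same sum, with the longest annotated transcript as the length. Vtn, vitronectin, had a mean of 2252 TPM over the 8 libraries (range 1963 to 2514), and Fn1, fibronectin, had 399 TPM (range 333 to 466). Ecm1, a secreted glycoprotein, followed at 131 TPM. Sparc, a collagen-binding matricellular protein, had 93.3, the proteoglycans Bgn and Dcn 86.4 and 69.1, Prelp 41.2 and Tgfbi, an integrin-binding adhesion protein, 35.7 TPM. The ranges over libraries of neighbours from Ecm1 down to Tgfbi overlapped, except that all of Dcn's values were above all of Prelp's and Ecm1 did not overlap with Dcn or anything below it. With the longest transcript the other 35 genes had lower means, the next being Emilin1, an elastin-microfibril interface protein, whose highest library was at 16.1 TPM against a lowest of 30.1 for Tgfbi. Elastin (Eln) had 3.26 TPM, tenascin C (Tnc) 0.563, lysyl oxidase (Lox) 0.323 and versican (Vcan) 0.0506 TPM. With the median in place of the longest transcript length, Eln was at 2.18, Tnc at 0.259, Lox at 0.1504 and Vcan at 0.125 TPM. Vtn, Fn1 and Ecm1 kept the top 3 places, while Dcn (83.8 TPM) then passed Sparc and Bgn, Tgfbi (62.2) passed Prelp (30.5), and Emilin1 (5.47) came after Efemp1 (8.60) and Nid1 (6.65).

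**Figure D1:**
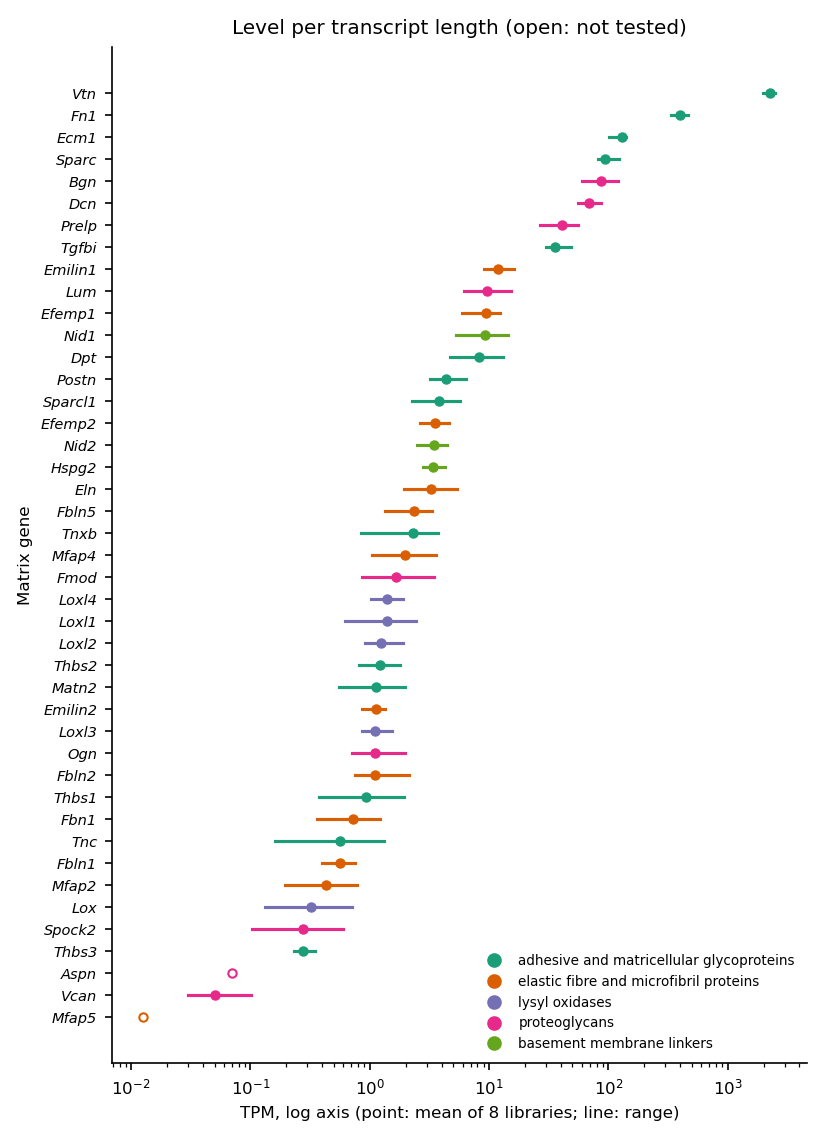
Level per transcript length of the 43 matrix genes in TPM on a log axis. Points are means of 8 libraries, lines the range where no library was at 0, colours the role of the gene, and open points the 2 genes that were not tested. Vtn and Fn1 lie to the right of all other genes.

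No gene of the group passed the test between genotypes. edgeR's quasi-likelihood test called 0 of 41, none higher and none lower, at an adjusted p of 0.05 over all genes (background 0% of 15669 genes), and the smallest adjusted p among them was 0.9998. DESeq2 also called 0 of the 41 (background 0.0383%), as did limma-voom with sample weights. At an unadjusted p under 0.05 edgeR had 4 of the 41, the proteoglycans Spock2, Ogn and Fmod and the glycoprotein Tnxb, all with lower levels in HSC-PCK1-KO, against 1.34% of all genes in that direction and 2.36% in either. The count in either direction was 9 without control replicate 2 (2.50% of all genes), 2 without control replicate 1 (2.29%) and 1 without control replicate 4 (2.46%). Of those 9, only Loxl4 was higher in HSC-PCK1-KO, at a log2 fold change of 0.46. At the same unadjusted threshold DESeq2 had 5 of the 41 (366 of 15669 over all genes) and limma-voom 4 (384 of 15669). The sets were not the same. DESeq2 had Fn1 beside the 4 of edgeR, and limma-voom had Efemp1 in place of Fmod.

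Most fold changes were nonetheless on the same side. The log2 fold change was below 0 in 36 of the 41 tested genes (background 51.8%), and the median was -0.18 against -0.0055 over all tested genes. Without control replicate 4 it was 24 of 41, with a median of -0.087. Without both control replicate 4 and HSC-PCK1-KO replicate 1 it was 22 of 41, with a median of -0.016, and all genes were then at 50.4% negative. As control replicate 4 was highest in 28 of the 41 genes and HSC-PCK1-KO replicate 1 lowest in 21, such moves upward were fixed in advance. The median with HSC-PCK1-KO replicate 1 alone left out was -0.095. With each library left out in turn, 25 of the 41 kept their sign in every fit and 16 did not, and 36 turned or moved by over 1.5 times in at least 1 fit, the exceptions being Spock2, Tnxb, Ogn, Efemp1 and Hspg2. These genes share their source livers and are not replicates of each other, so no test was made on the counts.

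The intervals bound how large a difference could have been missed. For all 41 genes the 95% interval excluded a 2-fold rise (background 93.2%), and for 33 it excluded a 1.5-fold rise (background 79.2%). These intervals are of the fit on all 8 libraries, and each holds at 95% for its gene alone, without adjustment over the 41. The upper limits nearest a 2-fold rise were log2 values of 0.97 for Tnc and 0.96 for Mfap2. Without control replicate 4 their log2 fold changes moved from -0.33 and -0.036 to 0.27 and 0.355. Intervals of that fit are not given here, so the bounds on a rise may depend on that liver. A 2-fold fall was excluded for 31 (background 91.2%) and a 1.5-fold fall for 18 (background 76.2%). The median standard error of a log2 fold change in the group was 0.21, against 0.13 over all tested genes.

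**Figure D2:**
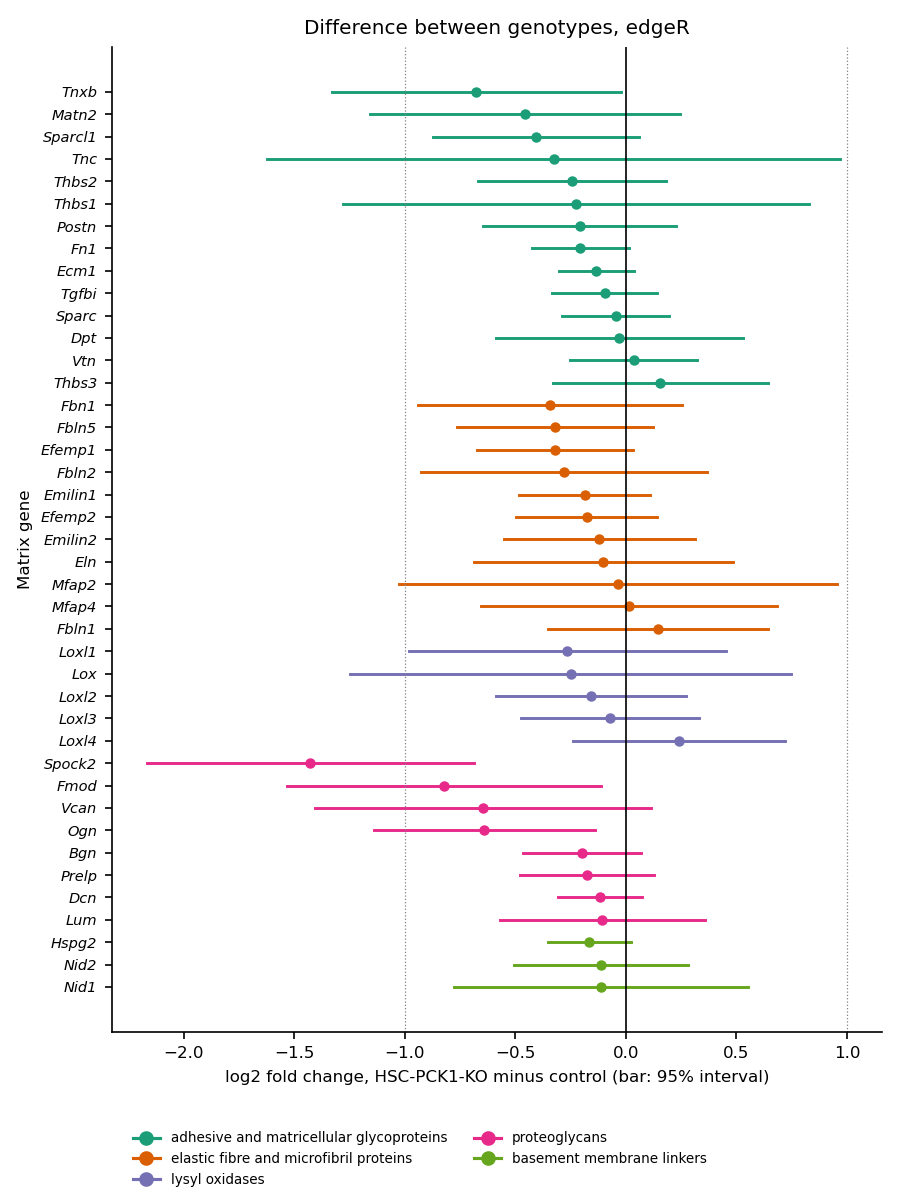
Log2 fold change, HSC-PCK1-KO minus control, of the 41 tested matrix genes by role, with 95% intervals from edgeR. Dotted lines mark a 2-fold difference. 36 points lie left of 0, and 37 of the 41 intervals include 0.

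The spread among livers of the same genotype was wide. Control replicate 4 was the highest of the 8 libraries in 28 of the 41 tested genes, while it was the highest in 15.4% of all tested genes. HSC-PCK1-KO replicate 1 was the lowest in 21 of 41, against 15.1% of all genes, and control replicate 2 was the lowest in 9. The median gene of the group stood 0.42 above its 8-library mean (log2 CPM) in control replicate 4, 0.17 above it in control replicate 1 and 0.38 below it in HSC-PCK1-KO replicate 1. In control replicates 2 and 3 it stood 0.15 and 0.10 below the mean, and in the other 3 HSC-PCK1-KO libraries it lay within 0.039 of it. The control group thus held both high and low livers, and 3 of the 4 HSC-PCK1-KO livers lay between them. In these bulk samples, fewer cells of a type and less RNA per cell cannot be told apart.

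**Figure D3:**
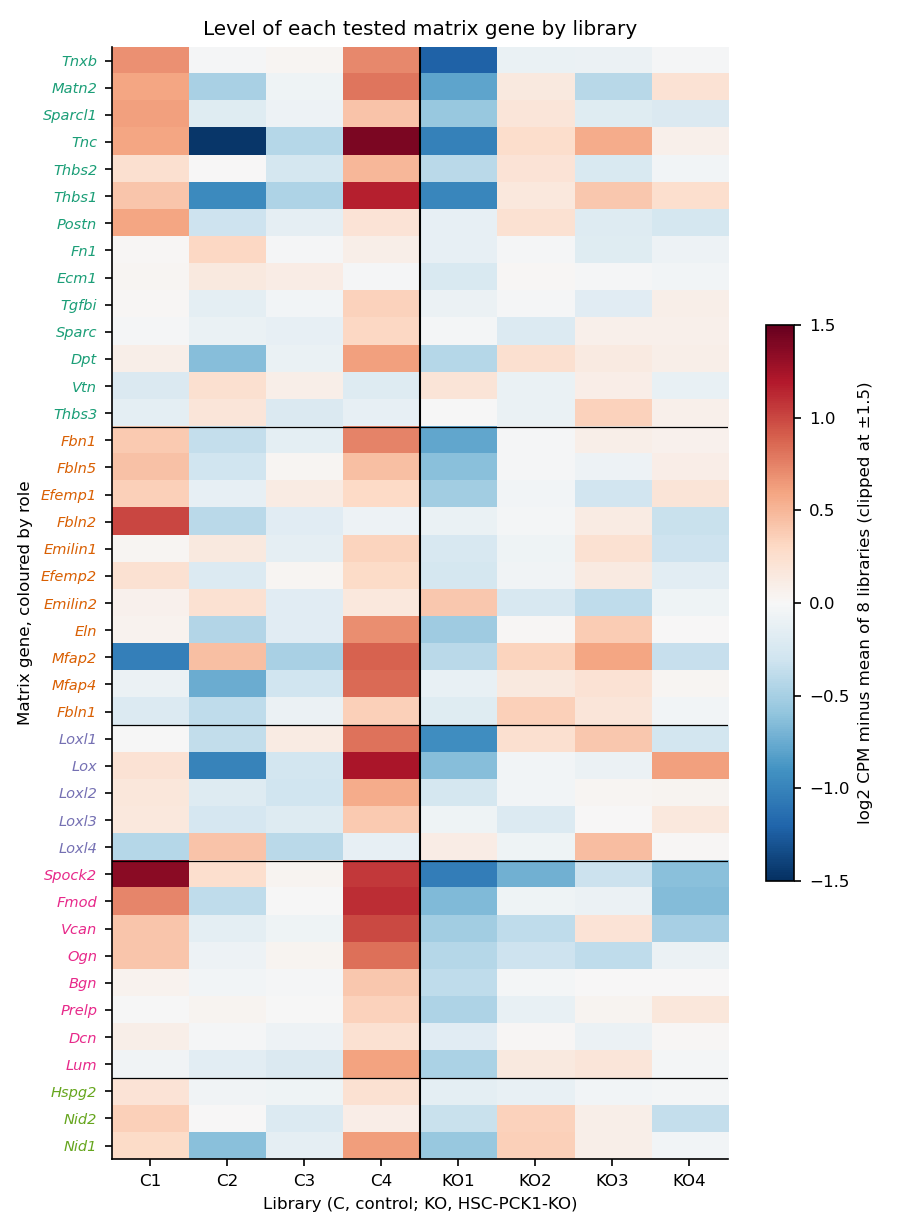
Log2 CPM of each tested matrix gene (rows, by role) minus its mean over the 8 libraries (columns). Red is above and blue below the mean. Control replicate 4 (C4) is red in most rows and HSC-PCK1-KO replicate 1 (KO1) blue in most rows, with Vtn, Thbs3, Loxl4 and Emilin2 among the exceptions.

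Adhesive and matricellular glycoproteins numbered 14, all tested, and 12 lay below 0, at a median log2 fold change of -0.21 that was -0.047 without control replicate 4 and HSC-PCK1-KO replicate 1. Fibronectin (ENSMUSG00000026193.16), which cells assemble into fibrils that seed new matrix, stood at 1651, 2021, 1612 and 1724 CPM in control replicates 1 to 4. In HSC-PCK1-KO replicates 1 to 4 it stood at 1496, 1602, 1434 and 1540 CPM. Every control library was thus above every HSC-PCK1-KO library, though the closest pair was at 1612 and 1602 CPM. The means were 1752 ± 185 and 1518 ± 70.7 CPM (SD, n = 4), and the log2 fold change of -0.21 (SE 0.0992) did not pass. It was -0.13 without control replicate 2 and -0.24 without control replicate 3.

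Fn1 was one of 3 tested genes of the group whose genotypes did not overlap, with Spock2 and Ogn, all higher in control (background 0.811% in that direction). Leaving out control replicate 2 made it 7 (3.31% of all genes in that fit, either direction), leaving out HSC-PCK1-KO replicate 2 made it 5 (3.89%), and any other library left 3 or 4 (2.65% to 4.49%).

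Vitronectin (Vtn), the other abundant plasma adhesion protein, did not share that ordering. Its levels were 1662, 2285, 2050 and 1688 CPM in control livers and 2203, 1806, 2078 and 1790 CPM in the HSC-PCK1-KO livers, with overlapping groups, a log2 fold change of 0.036 (SE 0.13) and a 95% interval from -0.25 to 0.32. Its sign turned when any of 3 libraries was left out, which were control replicates 1 and 4 and HSC-PCK1-KO replicate 1. Ecm1 stood at 125, 135, 132 and 121 CPM in control livers and 105, 124, 121 and 119 CPM in livers of the HSC-PCK1-KO group. Its lowest level was that of HSC-PCK1-KO replicate 1, and the groups overlapped.

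Tenascin X (Tnxb), a glycoprotein that associates with collagen fibrils, had the largest difference of this role. Its levels were 20.5, 12.6, 13.0 and 21.0 CPM in control livers and 5.52, 11.8, 12.01 and 12.6 CPM in the HSC-PCK1-KO livers. 3 of the HSC-PCK1-KO values were close to control replicates 2 and 3, and HSC-PCK1-KO replicate 1 lay far below them. The log2 fold change was -0.68 (SE 0.29, edgeR unadjusted p 0.044), and it was -0.47 without that library. It was -0.79 without control replicate 2.

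Tenascin C (Tnc), a matricellular protein of injured tissue, varied over 7.34-fold between libraries. It stood at 2.44, 0.590, 1.21 and 4.33 CPM in control livers and 0.804, 1.95, 2.39 and 1.71 CPM in the HSC-PCK1-KO livers, the control group holding both its highest and its lowest value. Thrombospondin 1 (Thbs1), which can release active TGF-beta from its latent complex, stood at 3.10, 1.20, 1.69 and 5.23 CPM in control livers and 1.18, 2.60, 3.08 and 2.78 CPM in livers of the HSC-PCK1-KO group. Its highest library was again control replicate 4, and its lowest values were in HSC-PCK1-KO replicate 1 and control replicate 2. The fold changes of -0.33 for Tnc and -0.22 for Thbs1 became 0.27 and 0.27 without control replicate 4, so their sign rested on that liver.

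Periostin (Postn), a matricellular protein of fibrotic tissue, stood at 16.4, 8.73, 9.89 and 12.5 CPM in control livers and 9.92, 12.7, 9.45 and 9.00 CPM in the HSC-PCK1-KO livers, and its groups overlapped widely. For Sparcl1, a relative of Sparc, the levels were 7.63, 4.39, 4.69 and 6.66 CPM in control livers and 3.35, 5.65, 4.36 and 4.27 CPM in livers of the HSC-PCK1-KO group, a log2 fold change of -0.41 (SE 0.21). Control replicates 1 and 4 were the high libraries, and without control replicate 1 the fold change was -0.25. It was -0.55 without HSC-PCK1-KO replicate 2. The other 6 glycoproteins, Thbs2, Thbs3, Sparc, Matn2, Tgfbi and Dpt, had log2 fold changes from -0.45 for Matn2 to 0.16 for Thbs3, and their groups overlapped. Matn2 was at -0.24 without control replicate 4 and -0.64 without control replicate 2. Thbs3 ranged from 0.058 to 0.24 over the fits without 1 library.

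Of 12 elastic fibre and microfibril proteins, 11 were tested and 9 lay below 0, at a median log2 fold change of -0.18 that was -0.050 without control replicate 4 and HSC-PCK1-KO replicate 1. Elastin (Eln), the core of elastic fibres, stood at 6.15, 4.34, 5.26 and 9.59 CPM in control livers and 4.07, 5.97, 7.67 and 5.91 CPM in the HSC-PCK1-KO livers. Its log2 fold change of -0.10 (SE 0.26) turned to 0.17 without control replicate 4, and HSC-PCK1-KO replicate 1 left out gave 0.035. Fibrillin 1 (Fbn1), the backbone of the microfibrils on which elastin is laid, had means of 4.69 ± 1.63 CPM in control livers and 3.70 ± 0.912 CPM in the HSC-PCK1-KO livers (SD, n = 4). 20.14% of its exonic bases in the annotation lie opposite exons of a predicted antisense gene, Gm9913, and as the strand setting of the counting is not given in the sources used here, reads of the pair may not have been told apart.

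Efemp1 and Fbln5 are fibulins, and Fbln5 guides elastin onto microfibrils. Efemp1 stood at 11.97, 8.56, 10.1 and 11.5 CPM in control livers and 6.501, 9.03, 7.62 and 10.6 CPM in livers of the HSC-PCK1-KO group, a log2 fold change of -0.32 (SE 0.16). Fbln5 stood at 8.87, 5.31, 6.68 and 8.92 CPM in control livers and 4.22, 6.44, 6.17 and 7.01 CPM in the HSC-PCK1-KO livers, at -0.32 (SE 0.20). In both, HSC-PCK1-KO replicate 1 was the lowest library and the groups overlapped, and without it Fbln5 was at -0.19. Without control replicate 2 Fbln5 was at -0.45. The remaining 7 tested genes, Emilin1, Emilin2, Efemp2, Fbln1, Fbln2, Mfap2 and Mfap4, lay between -0.28 for Fbln2 and 0.15 for Fbln1. Fbln2 was at 0.13 without control replicate 1, its high library, and at -0.43 without control replicate 2. Fbln1 ranged from 0.045 to 0.32 over the fits without 1 library. Mfap5 had at most 0.0406 CPM in any library.

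Lysyl oxidases, the copper enzymes that crosslink collagen and elastin, were negative in 4 of 5, with a median of -0.16. That median turned to 0.065 without control replicate 4 and to 0.22 without control replicate 4 and HSC-PCK1-KO replicate 1. Lox stood at 0.771, 0.330, 0.549 and 1.55 CPM in control livers and 0.424, 0.644, 0.623 and 1.02 CPM in livers of the HSC-PCK1-KO group. Control replicate 4 was its highest library and control replicate 2 its lowest. Loxl2, an enzyme found in scar septa, stood at 3.55, 2.76, 2.56 and 4.63 CPM in control livers and 2.61, 3.06, 3.22 and 3.23 CPM in the HSC-PCK1-KO livers, with all 4 HSC-PCK1-KO values inside the control range. Without control replicate 4 the fold changes of -0.25 for Lox and -0.16 for Loxl2 became 0.29 and 0.037.

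Loxl4 was the enzyme with the smallest p in this role and the only 1 of the 5 with a positive log2 fold change, 0.24 (SE 0.22). It stood at 1.87, 3.40, 1.90 and 2.32 CPM in control livers and 2.73, 2.41, 3.47 and 2.56 CPM in livers of the HSC-PCK1-KO group, and its second-highest value was in control replicate 2, where Lox was lowest. Over the fits without 1 library it ranged from 0.12 to 0.46. Loxl1, which acts in elastic fibre formation, was at -0.26 and Loxl3 at -0.073, and the groups of each overlapped. Without control replicate 4 they were at 0.016 and 0.065, and without control replicate 2 at -0.41 and -0.16. Of the exonic bases of Loxl3, 11.62% lie opposite exons of Htra2, which limits its counts in the same way as for Fbn1. The shares were 9.68% for Prelp and 8.45% for Nid2.

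Proteoglycans had the most negative median of the 5 roles. The 8 that were tested all lay below 0, at a median log2 fold change of -0.42 that was -0.15 without control replicate 4 and HSC-PCK1-KO replicate 1. Decorin (Dcn), a small leucine-rich proteoglycan that binds collagen fibrils and TGF-beta, stood at 169, 158, 151 and 186 CPM in control livers and 141, 161, 149 and 160 CPM in the HSC-PCK1-KO livers. Biglycan (Bgn), its closest relative, stood at 116, 109, 110 and 148 CPM in control livers and 86.2, 109, 112 and 112 CPM in livers of the HSC-PCK1-KO group. In both, control replicate 4 was highest and HSC-PCK1-KO replicate 1 lowest, and the other 6 libraries were interleaved. Their log2 fold changes were -0.12 (SE 0.0861) and -0.20 (SE 0.12). They became -0.055 and -0.087 without control replicate 4, and -0.021 and -0.0046 when HSC-PCK1-KO replicate 1 was left out as well. Without control replicate 2 they were at -0.14 and -0.245.

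Lumican (Lum), which regulates collagen fibril width, stood at 10.98, 10.2, 9.76 and 17.2 CPM in control livers and 8.13, 12.6, 12.9 and 11.1 CPM in the HSC-PCK1-KO livers. 3 HSC-PCK1-KO libraries were above 3 of the control libraries, and the log2 fold change of -0.11 (SE 0.21) became 0.12 without control replicate 4. Prelp, the third of these genes by level per length, was at -0.17 (SE 0.14), and at -0.066 without HSC-PCK1-KO replicate 1. Without HSC-PCK1-KO replicate 4 it was at -0.27.

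Fibromodulin (Fmod) and osteoglycin (Ogn) are less abundant relatives. Fmod stood at 3.81, 1.77, 2.28 and 4.96 CPM in control livers and 1.45, 2.19, 2.16 and 1.46 CPM in livers of the HSC-PCK1-KO group, where control replicates 1 and 4 were high and control replicate 2 lay inside the HSC-PCK1-KO range. Its log2 fold change of -0.82 (SE 0.32, edgeR unadjusted p 0.027) was -0.53 without control replicate 4 and -1.02 without control replicate 2. Ogn stood at 1.77, 1.25, 1.35 and 2.34 CPM in control livers and 0.983, 1.07, 1.02 and 1.24 CPM in the HSC-PCK1-KO livers, a log2 fold change of -0.64 (SE 0.23, unadjusted p 0.017). The closest control and HSC-PCK1-KO libraries differed by less than the CPM of 1 count, so Ogn's separation was at the limit of counting. Without both control replicate 4 and HSC-PCK1-KO replicate 1 the fold changes were -0.44 for Fmod and -0.40 for Ogn.

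Spock2 (ENSMUSG00000058297.17), which encodes a testican, a secreted heparan sulphate proteoglycan, had the fold change farthest from 0. It stood at 1.52, 0.708, 0.613 and 1.24 CPM in control livers and 0.290, 0.362, 0.478 and 0.386 CPM in livers of the HSC-PCK1-KO group. Every control library was above every HSC-PCK1-KO library, the lowest control value being 0.613 and the highest HSC-PCK1-KO value 0.478 CPM. Means were 1.02 ± 0.434 and 0.379 ± 0.0774 CPM (SD, n = 4). The log2 fold change was -1.43 (SE 0.33, 95% interval -2.17 to -0.69), and the quasi-likelihood test in edgeR gave an unadjusted p of 0.0015 and 0.9998 after adjustment, so it did not pass. In DESeq2 the adjusted p of Spock2 was 0.25, which did not pass either. The log2 fold change ranged from -1.60 to -1.17 over the fits that left out each library in turn. It was -1.21 without control replicate 4 and HSC-PCK1-KO replicate 1. Only 272 counts over the 8 libraries lay behind these values.

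Markers of mesothelial cells, which cover the liver surface, moved with Spock2. The 8 markers summed to 13.8, 6.42, 5.47 and 13.8 CPM in control replicates 1 to 4 and to 2.68, 3.40, 4.65 and 5.55 CPM in HSC-PCK1-KO replicates 1 to 4. Control replicates 1 and 4, the highest in Spock2, Fmod, Ogn and Tnxb, were also the highest in this sum, and HSC-PCK1-KO replicate 1 was lowest in all 5. That top pair and that lowest library were not particular to mesothelial markers. Control replicates 1 and 4 were also highest in the sums of fibrillar collagen (121.5 and 182.9 CPM) and activated myofibroblast markers (44.3 and 61.1 CPM). HSC-PCK1-KO replicate 1 was lowest in both, at 50.8 and 25.0 CPM. The other libraries were ordered differently. Control replicates 2 and 3 lay below HSC-PCK1-KO replicates 2 to 4 in collagen (62.9 and 85.0 against 87.1 to 110.5 CPM). They did so in myofibroblast markers too (28.3 and 35.5 against 37.4 to 38.1 CPM). In the mesothelial sum control replicate 2 was above every HSC-PCK1-KO library, and control replicate 3 was below HSC-PCK1-KO replicate 4 only. The 7 mesothelial markers with enough counts all lay below 0 (background 51.8%), at a median log2 fold change of -1.44. In edgeR 4 of them had an unadjusted p under 0.05 (background 1.34% in that direction), and none passed. No marker of the list was at 0 in all libraries. The part of any of these cells in the levels of the proteoglycans was not tested.

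Versican (Vcan), a large proteoglycan that binds hyaluronan, was near the detection limit, with 0.386, 0.259, 0.275 and 0.574 CPM in control livers and 0.201, 0.221, 0.332 and 0.203 CPM in the HSC-PCK1-KO livers. Its groups overlapped, at a log2 fold change of -0.65 (SE 0.34) from 119 counts in all. Without control replicate 4 it was at -0.36, and without HSC-PCK1-KO replicate 3 at -0.84. Aspn had between 0 and 0.201 CPM, with its highest value in HSC-PCK1-KO replicate 1 and a count of 0 in control replicate 2.

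**Figure D4:**
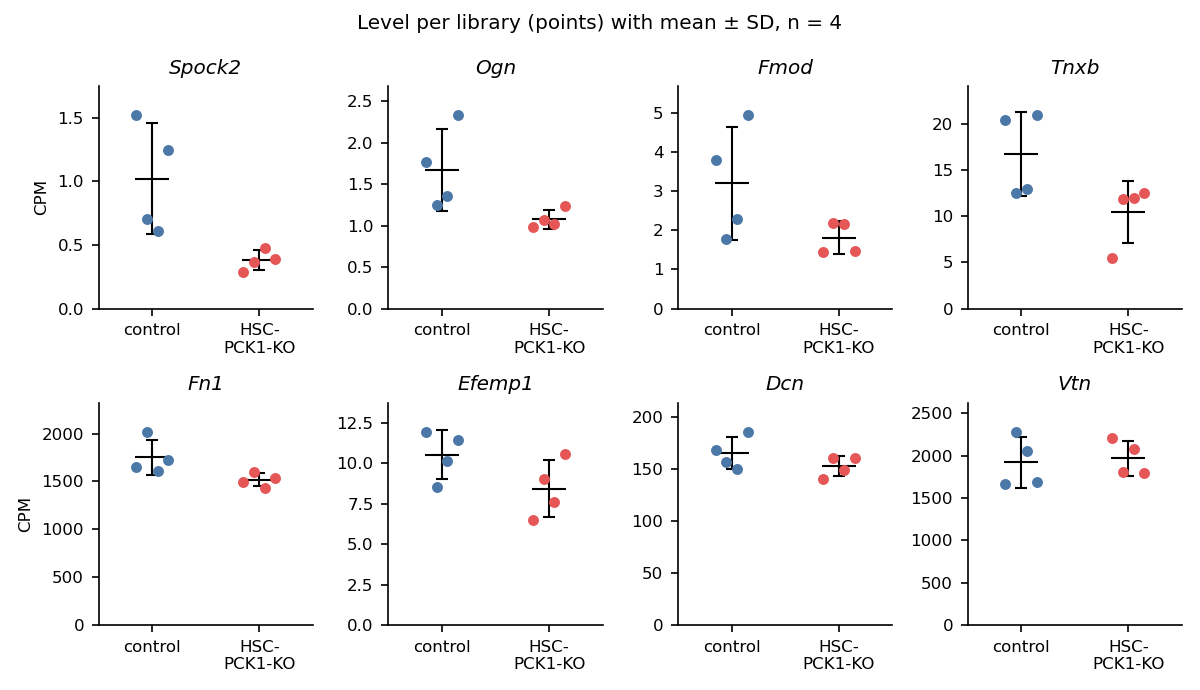
CPM in each library (points) with mean ± SD (n = 4) for 8 matrix genes, each axis starting at 0. Spock2, Ogn and Fn1 have no overlap between genotypes, the control points of Spock2, Fmod and Tnxb split into a high and a low pair, and Vtn has overlapping groups.

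Basement membrane linkers, which join laminin to type IV collagen, were negative in 3 of 3, with a median of -0.11 that was -0.020 without control replicate 4 and HSC-PCK1-KO replicate 1. Perlecan (Hspg2), a heparan sulphate proteoglycan of basement membranes, stood at 27.3, 22.8, 22.6 and 27.7 CPM in control livers and 21.4, 21.9, 23.0 and 23.2 CPM in livers of the HSC-PCK1-KO group, a log2 fold change of -0.16 (SE 0.0847). Its HSC-PCK1-KO libraries were close together, and control replicates 2 and 3 lay among them. The nidogens Nid1 and Nid2 were at -0.11 (SE 0.29) and -0.11 (SE 0.18). Over the fits without 1 library Nid1 ranged from -0.30 to 0.11 and Nid2 from -0.27 to -0.0081. Nid1 ranged from 16.9 to 40.5 CPM within the control group alone, which spans all 4 HSC-PCK1-KO values.

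Levels of most of the group ran with those of fibrillar collagen from liver to liver, though no relation passed adjustment over all genes. Each gene's log2 CPM was compared with the collagen mean over the 8 libraries, and 36 of 41 had a positive Pearson's r, against 50.3% of all genes, with a median r of 0.78 against 0.0046 over all genes. By exact permutation of the libraries, adjusted over 15666 genes, 0 of the 41 passed (background 0%), the smallest adjusted p of any of the 41 being 0.13. At an unadjusted exact p under 0.05, 25 were positive (background 7.55%) and 1 was negative (background 5.82%). With the genotype means removed the median r was 0.82. Without control replicate 4 and HSC-PCK1-KO replicate 1, the 2 libraries farthest from the median collagen level, it was 0.56, and 33 of 41 were positive against 48.7% of all genes.

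Fbn1 tracked collagen most closely, with r = 0.97 (exact permutation p = 0.00035) and Spearman's rho = 0.98 (exact permutation p = 0.0004), and r = 0.89 without the 2 extreme libraries. For Nid1 r was 0.96 (exact permutation p = 0.00042, rho = 0.90 with exact p = 0.0046) and 0.95 without them. Thbs1 and Tnc, which respond to injury, had r of 0.95 and 0.95, and 0.90 and 0.97 without the extremes, while Eln had 0.94 and 0.83. These 5 genes thus ranked the livers much as collagen did, also among the middle 6. Their adjusted p was 0.13 to 0.14, so none passed.

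For other genes the relation rested on the extreme libraries. Dcn had r = 0.82 (exact permutation p = 0.015, rho = 0.74 with exact p = 0.046) but 0.28 without them, Ogn 0.71 and 0.14, and Prelp 0.74 and -0.36. Spock2 had r = 0.63 (exact permutation p = 0.094) and 0.17 without the extremes, a weaker relation than most of the group.

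The 2 most abundant glycoproteins did not follow collagen. Fn1 had r = -0.032 (exact permutation p = 0.94, rho = 0.17), and -0.73 without the extremes. Vtn had r = -0.81 (exact permutation p = 0.011, rho = -0.79 with exact p = 0.028, adjusted p = 0.25), and -0.75 without the extremes. It was highest in control replicate 2 and HSC-PCK1-KO replicate 1, where collagen was lowest. Ecm1 (0.26), Thbs3 (-0.25), Loxl4 (-0.37) and Emilin2 (-0.41) also had an r under 0.3. CPM shares 1 total per library, and the hepatocyte marker sum was 85010 to 107200 CPM over the libraries. Recruited macrophage markers, 8 genes, summed to 79.6, 31.9, 55.6 and 118.7 CPM in control replicates 1 to 4 and to 40.9, 88.3, 64.6 and 75.4 CPM in HSC-PCK1-KO replicates 1 to 4. The sum was thus lowest in control replicate 2 and highest in control replicate 4, and its part in the relation was not tested.

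**Figure D5:**
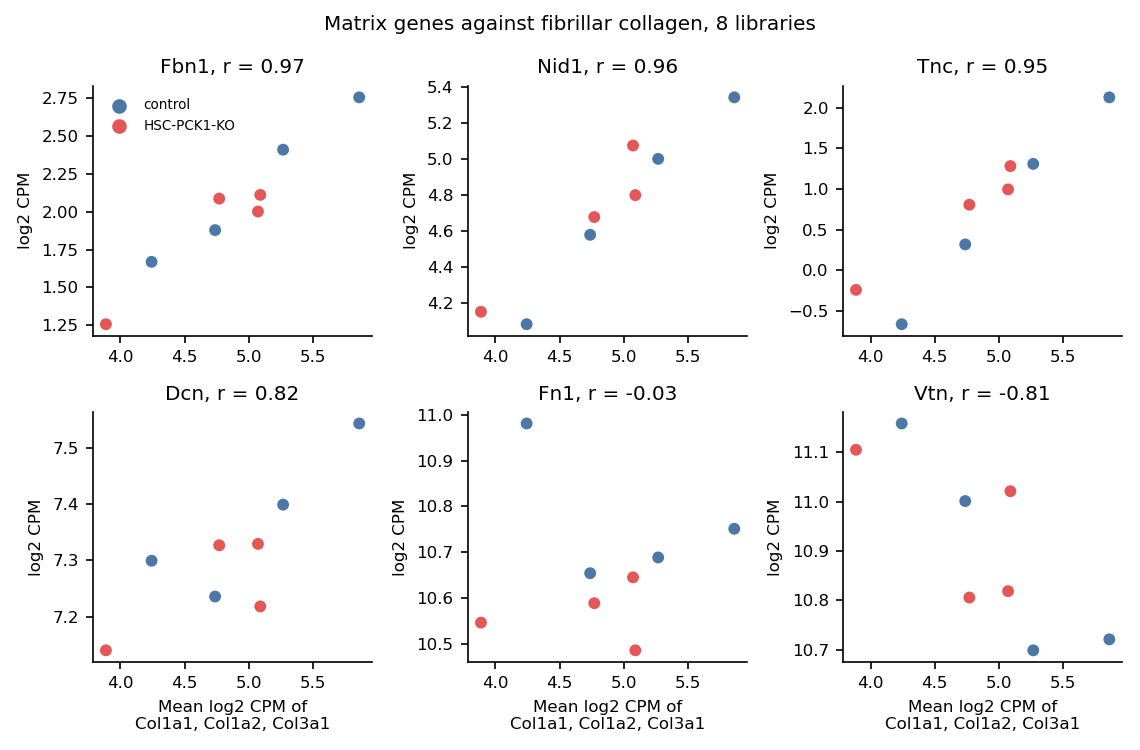
Log2 CPM of 6 matrix genes (y axes) against the mean log2 CPM of Col1a1, Col1a2 and Col3a1 (x axes) in 8 libraries, with Pearson's r. Fbn1, Nid1 and Tnc follow collagen along the whole range (r of 0.97, 0.96 and 0.95), Dcn mainly through its extremes, and Vtn runs opposite at r = -0.81.

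Other genes of the same matrix were compared in the same way. Of 71 further glycoproteins and proteoglycans, 53 were tested and 0 passed in either direction. Of these, 38 lay below 0 (background 51.8%), at a median log2 fold change of -0.12. That median was -0.0035 without control replicate 4 and HSC-PCK1-KO replicate 1. In edgeR 5 of the 53 had an unadjusted p under 0.05, all with lower levels in HSC-PCK1-KO (background 1.34% in that direction). Gpc3 and Gpc6, glypicans that carry heparan sulphate at the cell surface, had means of 1.45 ± 0.827 and 0.942 ± 0.253 CPM in control livers, and of 0.630 ± 0.225 and 0.588 ± 0.187 CPM in the HSC-PCK1-KO livers (SD, n = 4). Papln, a secreted glycoprotein, was at -0.55 (SE 0.22). Ltbp4, which holds latent TGF-beta in elastic fibres, had the smallest p of this list, at -0.41 (SE 0.0987, edgeR unadjusted p 0.0019). Its levels were 48.0 to 60.6 CPM in control and 35.3 to 44.2 CPM in HSC-PCK1-KO livers. It was 1 of 3 of the 53 without overlap between genotypes, all higher in control (background 0.811% in that direction).

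Genes that build and edit glycosaminoglycans, the sugar chains of proteoglycans, were spread around 0. Of 42, 38 were tested, 0 passed and 1 (Sulf1) had an unadjusted p under 0.05 in edgeR (background 2.36% in either direction). Of the 38, 23 were negative (background 51.8%) and 15 positive, with a median of -0.029. Sulf1 and Sulf2, which trim sulphate from heparan chains, had fold changes of opposite sign, neither past the test. Sulf1 stood at 1.93, 0.896, 0.634 and 2.64 CPM in control livers and 0.514, 0.563, 0.893 and 0.813 CPM in the HSC-PCK1-KO livers (-1.13, SE 0.43), with the same high pair, control replicates 1 and 4, as Spock2. Sulf2 stood at 14.4, 9.41, 15.3 and 18.04 CPM in control livers and 21.1, 18.1, 15.2 and 17.01 CPM in livers of the HSC-PCK1-KO group (0.32, SE 0.18). Hs3st3b1 and Ndst2, heparan sulphotransferases, were at -0.17 and -0.11. Over the fits without 1 library the ranges were -1.38 to -0.73 for Sulf1, 0.16 to 0.45 for Sulf2, -0.25 to -0.092 for Hs3st3b1 and -0.16 to -0.059 for Ndst2.

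Markers of the cells that make or hold this matrix overlapped between genotypes in their sums. Stellate cell markers summed to 228.7 to 256.3 CPM in control and 202.2 to 245.3 CPM in HSC-PCK1-KO livers, with 11 of 12 negative (background 51.8%). That count is of the fit on all 8 libraries. The lowest stellate sum was that of HSC-PCK1-KO replicate 1, against 227.5 to 245.3 CPM in HSC-PCK1-KO replicates 2 to 4. Activated myofibroblast markers summed to 28.3 to 61.1 and 25.0 to 38.1 CPM, portal fibroblast markers to 29.8 to 92.5 and 51.2 to 77.3 CPM, and vascular smooth muscle markers to 7.42 to 11.4 and 7.57 to 8.47 CPM. Only 4 of the 8 portal fibroblast and 3 of the 6 smooth muscle markers had enough counts to be tested, which limits these sums. Sinusoidal endothelial and Kupffer cell sums overlapped between genotypes, as did those of cholangiocytes. Of the fibroblast and muscle lists, Lrrc15, Clec3b and Myocd were under 0.1 CPM on average. No marker of any list passed by edgeR. Those with an unadjusted p under 0.05 were in the mesothelial (4), activated myofibroblast (1), Kupffer cell (1) and cholangiocyte (1) lists. All had lower levels in HSC-PCK1-KO (background 1.34% in that direction).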

How the data were processed

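The authors deposited raw counts per gene, whole numbers without normalization. Per the labels' protocols, poly(A) RNA of snap-frozen liver with an RNA integrity number of at least 8 was sequenced as strand-specific paired-end libraries, and per the submitters' processing notes the build was GRCm39. Aligner, counter, annotation and strand setting: not given in the sources used here.

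Symbols came by identifier from GENCODE M21 (build GRCm38), which named 52029 of 56953 identifiers. Transcript lengths came from the same annotation and covered 99.77% to 99.83% of counts. All 239 listed symbols were found. Promoters are RefSeq's for GRCm38.p6.

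Counts were analysed in R 4.3.3. Low genes were left out with edgeR's filterByExpr, leaving 15669 of 28811 with any count. edgeR 4.0.16 used TMM factors and its robust quasi-likelihood F-test with genotype as the only term. p-values were Benjamini-Hochberg adjusted over all genes, with a threshold of 0.05. Log2 CPM used a prior count of 2. The alternatives were DESeq2 1.42.0, voom in limma 3.58.1 with weights per sample, a block for the replicate number, scaling by RLE or by the upper quartile, 2 other filters (none, or 1 CPM in at least 4 libraries), and leaving out each library with the same genes kept. The model and the correlation were tested on simulated data.

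Values per library are given, by rule, for the 12 genes with the smallest p, the 3 highest per length, the smallest p in each of 5 roles and 11 textbook fibrosis readouts, and 4 genes from each of the lists of other matrix and glycosaminoglycan genes were named. Members, lists and rules were chosen with earlier results of these data known, and other genes were named after their values were seen. Libraries of a group differed far beyond counting noise (chi-square per degree of freedom 44.4 to 168), so none was a copy.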

Additional observations from a re-analysis of the deposited data

Results flagged for a closer look

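In 7 of 90 groups of 4 libraries, made of the 41 tested matrix genes, Pck1 and the 3 fibrillar collagens in each genotype, 1 library stood well away from the remaining 3, and about 1 in 20 groups, or 4.5, would do so by chance. HSC-PCK1-KO replicate 1 was the low library for Tnxb (5.52 CPM against 11.8 to 12.6 in the other 3), Fbn1 (2.35 against 3.96 to 4.28) and Bgn (86.2 against 109 to 113). Control replicate 4 was the high library for Lum (17.2 CPM against 9.76 to 10.98) and Prelp (91.7 against 71.7 to 74.3). Fbln2, a fibulin of elastic fibres and basement membranes, stood at 4.93 CPM in control replicate 1 against 1.86 to 2.34 in the other controls. Vcan stood at 0.332 CPM in HSC-PCK1-KO replicate 3 against 0.201 to 0.221, a gap of few counts.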

How the results depend on the processing

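No matrix gene was called under any alternative run, and over all genes DESeq2 called 6 and the fits without 1 library 0 to 1. The 36 negative fold changes were 24 to 37 with 1 library left out and 22 without control replicate 4 and HSC-PCK1-KO replicate 1, an alternative chosen after seeing the data, where the lysyl oxidase median was 0.22. That fit drops a high control and a low HSC-PCK1-KO liver, so a move of most fold changes upward was fixed in advance. In that fit Eln was at 0.31, Lum 0.24, Tnc 0.51, Thbs1 0.49, Lox 0.46, Loxl2 0.10, Vtn -0.080, Col1a1 0.11, Col1a2 0.18 and Col3a1 0.23, all of opposite sign to the fit on 8 libraries. With 1 library left out, 16 of the 41 matrix genes turned sign in at least 1 fit. Among the genes given by library and the collagens, the ranges that crossed 0 were -0.25 to 0.17 for Eln, -0.19 to 0.12 for Lum, -0.63 to 0.27 for Tnc, -0.47 to 0.27 for Thbs1, -0.51 to 0.29 for Lox, -0.26 to 0.037 for Loxl2, -0.028 to 0.13 for Vtn and -0.43 to 0.056 for Col3a1. The other 9 genes were Nid1, Loxl1, Loxl3, Fbln2, Dpt, Sparc, Tgfbi, Mfap2 and Mfap4. The cause was not tested. The lysyl oxidase median ranged from -0.26 to 0.065. Between 3 and 7 genes had no overlap with 1 library left out. RLE or upper quartile factors and DESeq2 left 36 negative, limma-voom 34, no filter 37 of 43 and the filter at 1 CPM 32 of 35. With the median transcript length Vtn was at 1723 and Fn1 at 542.4 TPM, and 8 of the 10 genes highest per length were the same. The median r with collagen, 0.78, was 0.62 to 0.83 with 1 library left out and 0.56 without the 2 extremes.

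The replicate number as a block gave 34 negative fold changes and a median of -0.14, changed no call, and left 2 of the 41 at an unadjusted p under 0.05 (1.98% of all genes), with Fmod at 0.10 and Tnxb at 0.097. Deviations of same-numbered libraries correlated at -0.33 to 0.058, and those of differently numbered libraries at -0.345 to 0.355. With so few pairs this cannot tell whether same-numbered livers share more than a number. Depth limits the low genes: 1 count is worth 0.0191 to 0.0236 CPM, and below about 1 CPM, as for Spock2, Vcan, Lox, Mfap2 and Thbs3, small differences were not detectable.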
